A study of Homo sapiens with 12 samples.

Results

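Interferon-stimulated antiviral genes are described here in 2 breast cancer cell lines in which PRKCD, the gene of protein kinase C delta (PKCδ), was targeted with siRNA. The list held 53 genes, with RIGI and DDX58 counted as 1 gene. A gene was taken as measured when 1 of its probes was detected, at a detection p under 0.01, on at least 3 of the 12 arrays. This left 50 of the 53 genes, among 11459 genes measured in all. PML had 7 probes that reached that level on at most 2 arrays, CMPK2 had 1 probe that reached it on 0 arrays, and STAT2 was not analysed here.

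MDA-MB-468 and BT-549 are established human breast cancer lines. Both were kept in the same medium with serum, and that of BT-549 also held insulin, which cannot be told apart from the line in any comparison between lines. Both were transfected with a control siRNA (siControl) or with siRNA against PRKCD (siPRKCD), which gave 4 groups of 3 arrays, Illumina Human HT-12 v4 BeadChips that read each transcript with bead-bound probes. The study speaks of the replicates as experiments, a p-value here measures the spread among them, and their number limits the precision. Signals were quantile-normalized over the 12 arrays and are given on the log2 scale, tests were made with limma over all 11459 genes, and calls were made where the p adjusted by Benjamini and Hochberg's method was under 0.05.

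Interferons are secreted proteins that cells release on sensing viral nucleic acid. Type I interferons bind the receptor chains IFNAR1 and IFNAR2, whose kinases JAK1 and TYK2 phosphorylate STAT proteins. Together with IRF9 these form ISGF3, a complex that binds interferon-stimulated response elements (ISREs) in promoters, whereas STAT dimers formed after interferon gamma bind gamma-activated sequences (GAS). The genes switched on in this way encode sensors of viral RNA, proteins that block translation or degrade RNA, membrane proteins that stop entry or release, the ubiquitin-like protein ISG15 with its enzymes, and transcription factors that sustain the response. Many tumour lines, breast cancer lines among them, express part of this set without added interferon.

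RefSeq promoter windows (build GRCh38.p14, 250 bases before to 50 bases after a start site) were found for 41 of the 50 genes, and the table used here holds none for IFIT2, MX2, OAS2, OASL, DHX58, IRF7, IFITM2, USP18 and TRIM22. They were searched on both strands for the letters GAAANNGAAA, the core of an ISRE, and for the palindromic letters TTCNNNGAA of a GAS, with overlaps between the motifs allowed. The ISRE core stood in 28 of the 41 genes (68.3%), against 3.89% of the 9227 tested genes with a window and 4.38% of 27305 genes in the whole table. The GAS letters stood in 13 of 41 (31.7%), against 8.54% and 9.38%. Genes of the list were chosen as interferon targets, so a high share was built into it, and a match is a stretch of letters and not a measured binding site. Stretches around an ISRE core are given for genes with large responses and for some genes of other groups, because this element is the feature these genes are best known to share. Each runs 5′ to 3′ on the strand of its gene, with the core or its reverse complement in capitals and 15 bases on each side.
IFIT1: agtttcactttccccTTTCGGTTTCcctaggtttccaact
IFIT3: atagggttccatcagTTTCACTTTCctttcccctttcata
IFIT5: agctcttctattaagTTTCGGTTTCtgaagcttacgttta
MX1: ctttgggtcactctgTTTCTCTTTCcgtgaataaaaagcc
OAS3: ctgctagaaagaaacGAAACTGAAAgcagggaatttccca
IFIH1: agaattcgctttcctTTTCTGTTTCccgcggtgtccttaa
ISG15: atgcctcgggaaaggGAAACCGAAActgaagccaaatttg
PARP9: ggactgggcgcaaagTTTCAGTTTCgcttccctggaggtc
IFITM3: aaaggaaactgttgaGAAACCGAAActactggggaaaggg
SAMD9: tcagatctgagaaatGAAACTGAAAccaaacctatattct
IFI44: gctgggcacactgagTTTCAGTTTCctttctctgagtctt
EPSTI1: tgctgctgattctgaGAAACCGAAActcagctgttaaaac

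In GRCh38.p14 these stretches lie at IFIT1 chr10:89392505-89392544 (plus strand), IFIT3 chr10:89332463-89332502 (plus strand), IFIT5 chr10:89414508-89414547 (plus strand), MX1 chr21:41431839-41431878 (plus strand), OAS3 chr12:112938316-112938355 (plus strand), IFIH1 chr2:162318813-162318852 (minus strand), ISG15 chr1:1013375-1013414 (plus strand), PARP9 chr3:122564317-122564356 (minus strand), IFITM3 chr11:320871-320910 (minus strand), SAMD9 chr7:93118091-93118130 (minus strand), IFI44 chr1:78649756-78649795 (plus strand) and EPSTI1 chr13:42992267-42992306 (minus strand). The capitals begin 103 bases before the start site in IFIT1, 51 before it in IFIT3 and 45 before it in IFIT5. All 3 IFIT genes with a window held the core more than 1 time, always as its reverse complement TTTCNNTTTC on the strand of the gene. The IFI44 stretch lies before both of its start sites. MX1 held a second core from 12 to 21 bases after another of its start sites. ISG15 and IFITM3 each held 2 cores. PARP9 and DTX3L, which lie head to head, share the stretch shown, so that a single core stands in both promoters and is read from opposite strands. Of the factor genes with a window, IRF1 and IRF9 held no ISRE core, and both held the GAS letters. No match says only that these letters were not in the window.

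PRKCD itself checked the labels. Its log2 signal in MDA-MB-468 cells was 9.15, 9.13 and 8.82 with siControl and 7.29, 7.20 and 7.47 with siPRKCD. BT-549 cells gave 7.71, 7.73 and 7.76 with siControl and 6.89, 6.67 and 7.01 with siPRKCD. The groups did not overlap in either line. The fall was 3.28-fold in MDA-MB-468 (limma adjusted p = 6.3e-08) and 1.83-fold in BT-549 (limma adjusted p = 5.3e-05), a weaker fall in BT-549 by limma's interaction test (adjusted p = 0.0032), in a line that started from a lower signal and where only 1 of the 3 siPRKCD arrays detected the probe. Of 8 epithelial markers 7 were detected on all 6 MDA-MB-468 arrays and 1, CDH1, on all 6 BT-549 arrays. Of 6 mesenchymal markers 5 were detected on all 6 BT-549 arrays and 2, VIM and CDH2, on all 6 MDA-MB-468 arrays. Of 4 leukocyte markers with a probe, CD14 was detected on all 12 arrays and PTPRC, CD3E and ITGAM on 0. Between 16036 and 17724 probes were detected on each MDA-MB-468 array and between 16640 and 17263 on the BT-549 siControl arrays, but only 15616 to 16595 on the BT-549 siPRKCD arrays.

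Some arrays stood apart for these genes. BT-549 siControl 1 was the highest of its 3 arrays for 40 of the 50 genes and siControl 3 the lowest for 33. BT-549 siPRKCD 1 was the highest for 36 and siPRKCD 2 the lowest for 38. The median SD of the 50 genes was 0.157 with siControl and 0.171 with siPRKCD in BT-549, against 0.0998 and 0.120 for all genes, whereas in MDA-MB-468 it was 0.0931 and 0.109 against 0.111 and 0.117. Replicate 3 of MDA-MB-468 was high with both siRNAs for IFI6, IFI27, IFITM1 and BST2. Counts are therefore also given without these arrays.

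**Figure D1:**
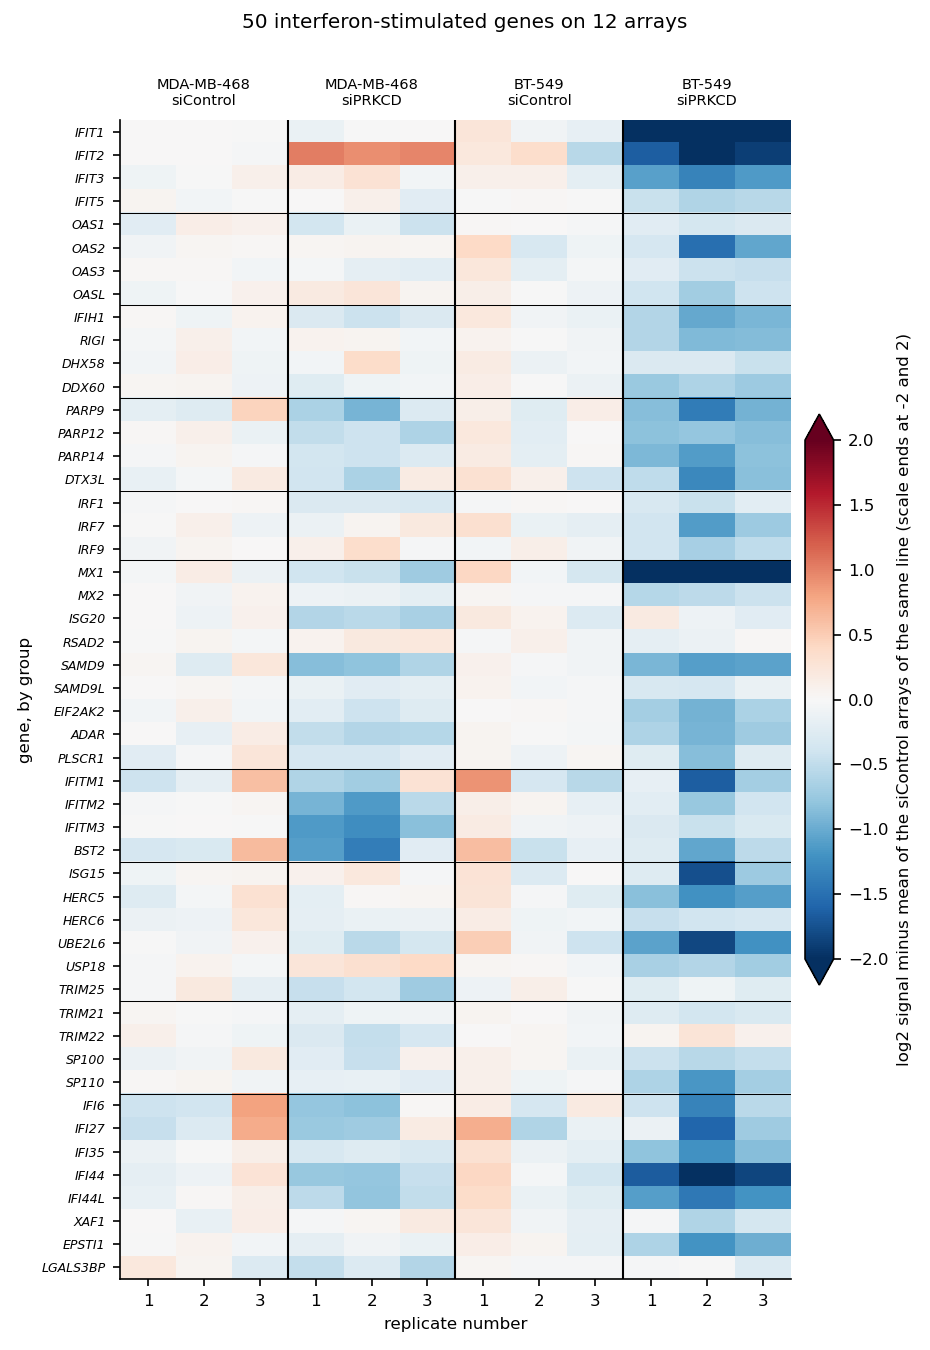
Log2 signal of the 50 interferon-stimulated genes (rows, by gene group) on the 12 arrays (columns, by group and replicate number), each minus the mean of the 3 siControl arrays of the same line, with colours ending at -2 and 2. Blue fills most rows of the 3 BT-549 siPRKCD arrays, where 38 of 50 genes were called lower, while IFIT2 and USP18 are red on the MDA-MB-468 siPRKCD arrays.

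With siPRKCD a large part of the interferon-stimulated genes fell in BT-549 and a smaller part in MDA-MB-468, among them the IFIT genes, MX1 and the PARP genes in BT-549 and IFITM2 and IFITM3 in both lines. In BT-549 cells 38 of the 50 genes (76.0%) were called lower, against 14.9% of all genes tested, and 0 were called higher, against 11.6%. TRIM22 was the only gene with a positive log2 fold change there (0.14, unadjusted p = 0.16 in limma). Every siPRKCD array lay below every siControl array for 40 genes (80.0%), against 22.0% of all genes. The median log2 fold change was -0.75, against -0.0094 over all genes. An unadjusted p under 0.05 in limma was found for 42 of the 50 members, against 4262 of all 11459 genes. Since arrays read RNA of the whole culture, fewer cells expressing a gene and less of its RNA per cell cannot be told apart.

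In MDA-MB-468 cells 18 genes (36%) were called lower, against 13.7% of all genes, and 2 (4.0%), IFIT2 and USP18, were called higher, against 12.4%. Every siPRKCD array lay below every siControl array for 24 genes (48%), against 19.7%, and the median was -0.29, against 0.0027 over all genes. The 2 responses were then compared directly as an interaction. The response was called more negative in BT-549 for 20 genes (40%), against 5.62% of all genes, and less negative for 2 (4.0%), IFITM3 and TRIM22, against 5.15%. The median difference was -0.46, against -0.011 over all genes. The response was more negative in BT-549 for 42 of 50 genes, against 5917 of all 11459 genes.

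Taking both lines together, 12 genes were called lower in both, namely IFI44, IFI44L, IFIH1, IRF1, IFITM2, IFITM3, SAMD9, PARP9, PARP12, PARP14, EIF2AK2 and ADAR. A further 24 were called lower in BT-549 only, 6 in MDA-MB-468 only (OAS1, ISG20, BST2, TRIM22, TRIM25 and LGALS3BP), and 2, IFIT2 and USP18, were called in opposite directions. The remaining 6 were IFI6, IFI27, DHX58, IFITM1, RSAD2 and XAF1, called in neither line. A call in a single line is no test of a difference, which the interaction gives. Without BT-549 siControl 1 and siPRKCD 2, 25 genes were called lower in BT-549, all of them among the 38, and 987 of all 11459 genes. In that fit 12 differences were called lower, against 380 over all genes. Without siControl 1 alone the counts were 31 and 13, against 1214 and 442 over all genes. Without replicate 3 of both MDA-MB-468 groups, 13 genes were called lower and 1 higher in that line, against 1400 and 1191 of all genes. When arrays were centred on their median instead of quantile-normalized, 7 members were called lower in MDA-MB-468 cells and 34 in BT-549, the calls over all genes in MDA-MB-468 went from 1567 lower and 1424 higher to 814 and 647, those in BT-549 shifted from 1705 lower and 1325 higher to 1398 and 390, and those of the difference from 644 and 590 to 342 and 168. Signals also came nearer to the detection limit, since 46 of 50 genes were detected on all 3 BT-549 siControl arrays and 31 on all 3 siPRKCD arrays. The lower number of detected probes on the latter moves with the result, and its part was not tested. Among the 40 genes detected on all 6 siControl arrays, 32 were called lower in BT-549 and 16 lower and 2 higher in MDA-MB-468. Over all genes tested, without that limit on detection, the shares were 14.9%, 13.7% and 12.4%. The shares of all genes detected on those 6 arrays were not taken.

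**Figure D2:**
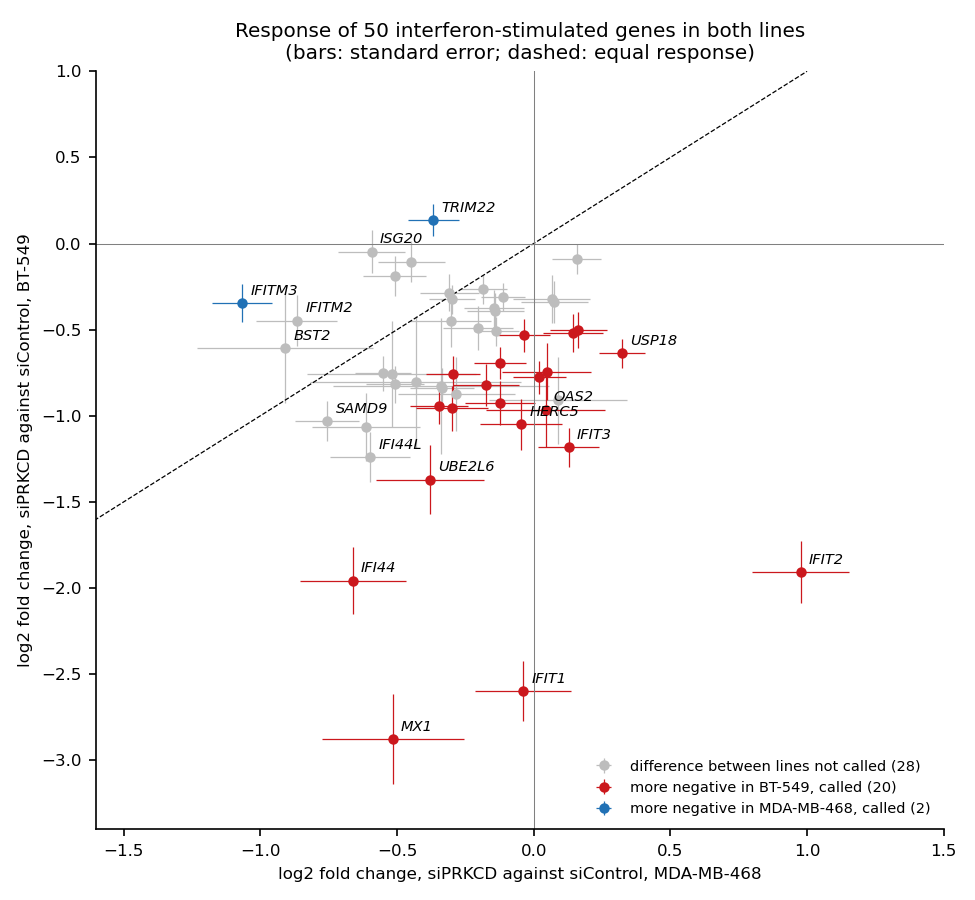
Log2 fold change (siPRKCD against siControl) of the 50 genes in MDA-MB-468 (x axis) and in BT-549 (y axis), with standard errors as bars and the line of equal response dashed. The 20 genes in red, called more negative in BT-549, lie below the dashed line with MX1, IFIT1, IFI44 and IFIT2 farthest down, and the 2 in blue, IFITM3 and TRIM22, lie above it.

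The IFIT proteins bind viral RNA through tetratricopeptide repeats and block its translation, and their genes lie together on chromosome 10. All 4 were called lower in BT-549 and all 4 responses were called different between the lines (group median -1.54 in BT-549, 0.05 in MDA-MB-468). IFIT1, which recognizes RNA without a methylated cap, read 10.89, 10.58 and 10.49 on the BT-549 siControl arrays and 8.35, 7.48 and 8.32 on the siPRKCD arrays. In MDA-MB-468 cells IFIT1 gave 8.77, 8.76 and 8.75 with siControl and 8.63, 8.76 and 8.77 with siPRKCD. The BT-549 groups were thus apart on every array, with siPRKCD 2 the lowest, while the MDA-MB-468 arrays overlapped within a narrow range. IFIT1 fell 6.07-fold in BT-549 (log2 fold change -2.60, standard error 0.17, limma adjusted p = 2.7e-07) against a log2 fold change of -0.04 (limma adjusted p = 0.91) in MDA-MB-468. The difference of -2.56 was called (limma adjusted p = 1.3e-05).

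IFIT2 was the gene whose responses differed most, and IFIT2, IFIT1 and MX1 had the 3 most negative differences of all 11459 genes. Its signal on the MDA-MB-468 arrays was 8.67, 8.66 and 8.63 with siControl and 9.67, 9.59 and 9.64 with siPRKCD. On the BT-549 arrays IFIT2 read 9.92, 10.07 and 9.16 with siControl and 8.06, 7.54 and 7.83 with siPRKCD. Every siPRKCD array was above every siControl array in MDA-MB-468 and below every one in BT-549. IFIT2 therefore rose 1.97-fold in MDA-MB-468 (log2 fold change 0.98, standard error 0.18, limma adjusted p = 0.00084) and fell 3.75-fold in BT-549 (log2 fold change -1.91, standard error 0.18, limma adjusted p = 3.9e-06), a difference of -2.88 (limma adjusted p = 4.7e-06). IFIT3, which forms complexes with IFIT1, was at 8.32, 8.32 and 8.04 in BT-549 with siControl and at 7.15, 6.90 and 7.09 with siPRKCD, again without overlap. The MDA-MB-468 values of IFIT3 were 7.64, 7.72 and 7.82 with siControl and 7.87, 8.01 and 7.68 with siPRKCD, which overlapped. Its log2 fold changes were -1.18 (limma adjusted p = 4.3e-06) in BT-549 cells and 0.13 (limma adjusted p = 0.46) in MDA-MB-468. Both other IFIT3 probes were also called lower in BT-549 (-1.04 and -0.76). IFIT5 was detected on 0 of the BT-549 siPRKCD arrays, so that its fall there was at least 1.29-fold (limma adjusted p = 0.00067), a bound set against the lowest detected signal of those arrays. Its difference between the lines (-0.50, limma adjusted p = 0.025) lost its call on leaving out any of 6 arrays in turn (adjusted p up to 0.068).

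**Figure D3:**
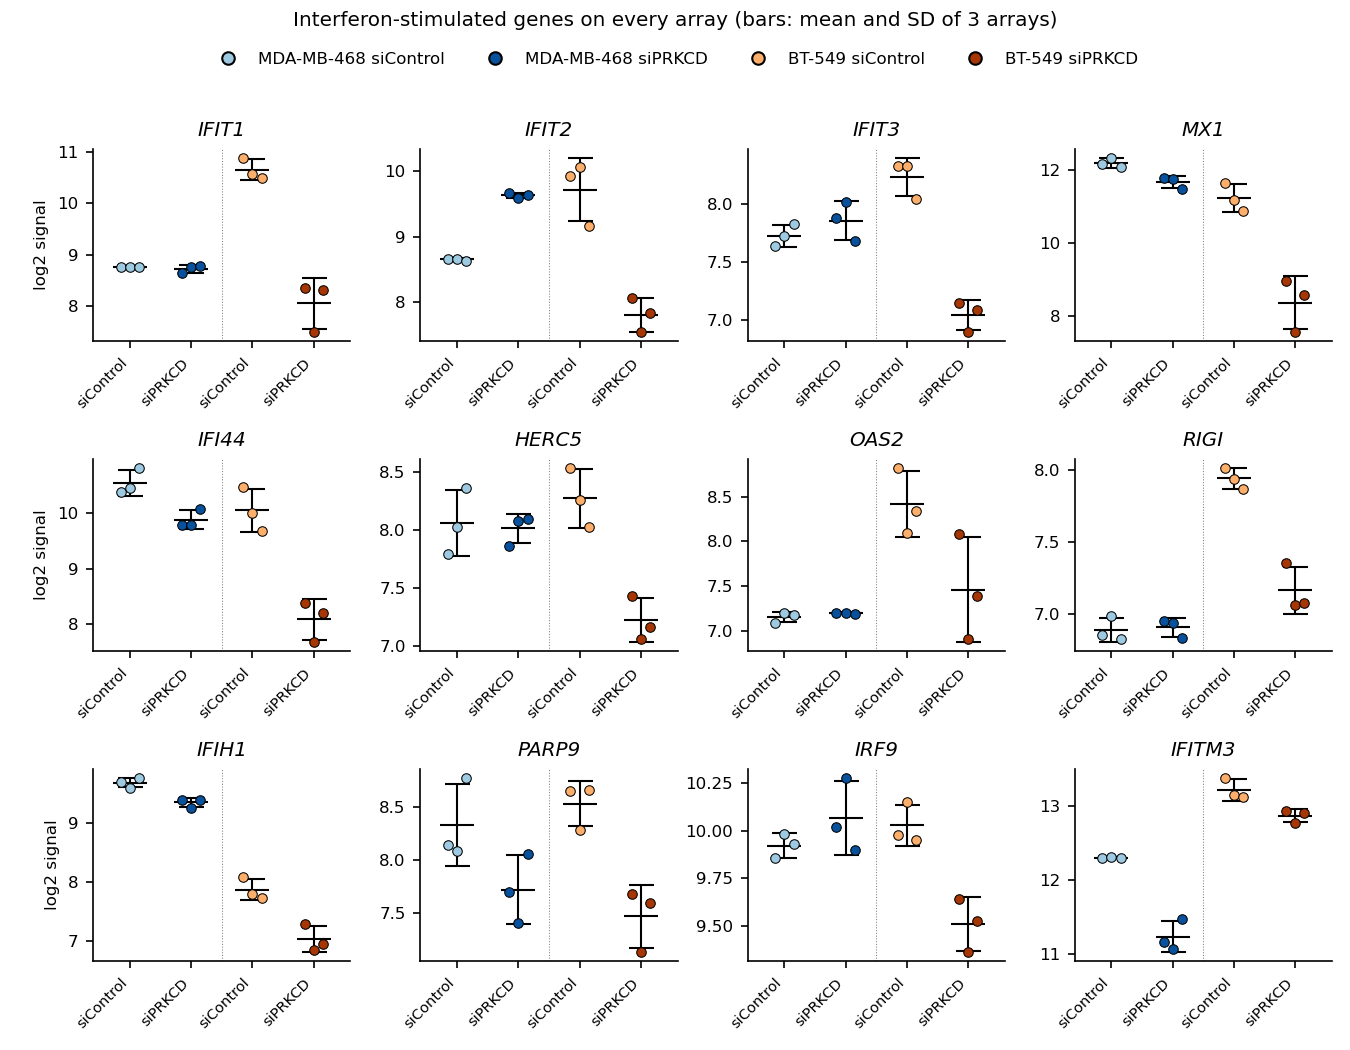
Log2 signal (y axis, own scale in each panel) of 12 interferon-stimulated genes on each array of the 4 groups, with points for single arrays and bars for the mean and SD of 3. IFIT2 rises in MDA-MB-468 and falls in BT-549, IFIT1 overlaps between the MDA-MB-468 groups and falls in BT-549, and IFITM3 falls more in MDA-MB-468.

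The OAS enzymes make oligoadenylates on binding double-stranded RNA, which act as a second messenger of the antiviral response. OAS1, OAS2 and OAS3 lie together on chromosome 12. In BT-549 OAS2, OAS3 and OASL were called lower and OAS1 was not (median -0.44), and in MDA-MB-468 OAS1 was the only one called (median -0.05). OAS2 read 8.82, 8.10 and 8.34 in BT-549 with siControl and 8.08, 6.91 and 7.39 with siPRKCD, and 7.09, 7.19 and 7.18 with siControl and 7.20, 7.20 and 7.19 with siPRKCD in MDA-MB-468. The BT-549 groups did not overlap, although siPRKCD 1 lay just under siControl 2, and the MDA-MB-468 arrays were all within a narrow range. Its log2 fold change was -0.96 (limma adjusted p = 0.0038) in BT-549, where the call was lost without siControl 1 and siPRKCD 2. The difference between lines (-1.01, limma adjusted p = 0.047) lost its call on leaving out any of 10 arrays in turn (adjusted p up to 0.12) and with replicate pairing in MDA-MB-468 (adjusted p = 0.051). A second OAS2 probe gave -0.13 in BT-549 and was not called (limma adjusted p over all probes = 0.41). OASL, an OAS-like protein without enzyme activity, had a log2 fold change of -0.50 (limma adjusted p = 0.0020) in BT-549 cells and of 0.16 (limma adjusted p = 0.28) in MDA-MB-468, with a called difference of -0.67 (limma adjusted p = 0.0084). OASL was detected on only 1 or 2 arrays of the MDA-MB-468 siControl and BT-549 siPRKCD groups. OAS3 had a log2 fold change of -0.38 (limma adjusted p = 0.018) in BT-549, lost without siControl 1, siPRKCD 2 or siPRKCD 3 (adjusted p up to 0.11). OAS1 had one of -0.31 (limma adjusted p = 0.044) in MDA-MB-468, lost on leaving out any of 9 arrays in turn (adjusted p up to 0.18), and one of -0.29 (limma adjusted p = 0.061) in BT-549, where it was detected on 0 siPRKCD arrays (at least 1.02-fold lower) and was called with the replicates of MDA-MB-468 paired (adjusted p = 0.026).

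Among the RNA sensors, RIGI and IFIH1 (MDA5) are helicases that bind viral RNA in the cytoplasm and signal through MAVS, DHX58 (LGP2) modulates them and DDX60 is a related helicase. RIGI, IFIH1 and DDX60 were called lower in BT-549 (median of the 4 -0.74), and in MDA-MB-468 only IFIH1 was called (median -0.05). RIGI read 8.01, 7.94 and 7.87 on BT-549 siControl arrays and 7.35, 7.06 and 7.07 on siPRKCD arrays, without overlap. In MDA-MB-468 RIGI gave 6.85, 6.98 and 6.82 with siControl, detected on 1 array, and 6.95, 6.93 and 6.83 with siPRKCD, detected on 2. RIGI fell 1.71-fold in BT-549 (log2 fold change -0.78, standard error 0.10, limma adjusted p = 3.9e-05), and its difference between lines was -0.80 (limma adjusted p = 0.0016). IFIH1 was at 9.71, 9.60 and 9.76 with siControl and 9.39, 9.27 and 9.40 with siPRKCD in MDA-MB-468 and at 8.08, 7.81 and 7.74 with siControl and 7.29, 6.86 and 6.96 with siPRKCD in BT-549. The groups were apart in both lines. Its log2 fold changes were -0.84 (limma adjusted p = 9.3e-05) in BT-549 cells and -0.34 (limma adjusted p = 0.045) in MDA-MB-468, the latter lost on leaving out any of 8 arrays in turn (adjusted p up to 0.15), and the difference of -0.50 was not called (limma adjusted p = 0.065), but was without BT-549 siPRKCD 1 (adjusted p = 0.019), with a replicate block over both lines (adjusted p = 0.027) and after neqc background correction. DDX60 had a log2 fold change of -0.69 (limma adjusted p = 8.2e-05) in BT-549 and a called difference of -0.57. DHX58 had one of -0.34 (limma adjusted p = 0.051) in BT-549, where it was detected on 0 siPRKCD arrays (at least 1.16-fold lower), and was called there with the MDA-MB-468 replicates paired (adjusted p = 0.017).

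PARP9, PARP12 and PARP14 are ADP-ribosyltransferase family proteins that interferon raises, and DTX3L is the ubiquitin ligase that pairs with PARP9. All 4 were called lower in BT-549 (range of log2 fold changes -1.06 to -0.82, median -0.91) and the 3 PARP genes also in MDA-MB-468 (median -0.43). PARP9 read 8.66, 8.29 and 8.66 with siControl and 7.69, 7.13 and 7.60 with siPRKCD in BT-549, and 8.14, 8.08 and 8.78 with siControl and 7.70, 7.41 and 8.06 with siPRKCD in MDA-MB-468. The siPRKCD arrays were the lower ones in both lines, and MDA-MB-468 replicate 3 was the highest with either siRNA. Its log2 fold changes were -1.06 (limma adjusted p = 0.00092) in BT-549 cells and -0.61 (limma adjusted p = 0.032) in MDA-MB-468. The MDA-MB-468 call was lost without siControl 3, siPRKCD 1 or siPRKCD 2 (adjusted p up to 0.15). A second PARP9 probe was called lower in both lines (-1.35 and -0.68). Its difference between lines was also called (-0.67, limma adjusted p over all probes = 0.039), whereas that of the probe read was not (-0.45). PARP12 had a log2 fold change of -0.82 (limma adjusted p = 6.1e-05) in BT-549 cells and of -0.51 (limma adjusted p = 0.0025) in MDA-MB-468, with calls in both lines under every setting tried. PARP14 had a log2 fold change of -0.94 (limma adjusted p = 1.4e-05) in BT-549 cells and -0.35 (limma adjusted p = 0.023) in MDA-MB-468, the second lost without siControl 2, siPRKCD 1 or siPRKCD 2 (adjusted p up to 0.081). By the probe read for each gene, PARP14 alone of this group had a called difference (-0.60, limma adjusted p = 0.017). DTX3L had a log2 fold change of -0.88 (limma adjusted p = 0.0069) in BT-549 cells and -0.28 (limma adjusted p = 0.38) in MDA-MB-468. Its BT-549 call was lost without BT-549 siControl 1 and siPRKCD 2 together. PARP9 and DTX3L, the partners with the shared promoter stretch, had -1.06 and -0.88 in BT-549 and -0.61 and -0.28 in MDA-MB-468. Any part of that stretch in these responses was not tested.

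Of the factors, IRF9 is the DNA-binding partner of the STATs in ISGF3, IRF7 drives interferon alpha genes and IRF1 is a factor that interferon gamma raises. All 3 were called lower in BT-549 (median -0.52), and IRF1 alone in MDA-MB-468 (median 0.05). IRF9 read 9.98, 10.15 and 9.95 with siControl and 9.64, 9.36 and 9.53 with siPRKCD in BT-549, which did not overlap, and 9.85, 9.98 and 9.93 with siControl and 10.02, 10.28 and 9.90 with siPRKCD in MDA-MB-468, which did. Its log2 fold change was -0.52 (limma adjusted p = 0.0024) in BT-549 cells and 0.14 (limma adjusted p = 0.38) in MDA-MB-468, with a called difference of -0.66 (limma adjusted p = 0.012). IRF7 was at 8.93, 8.49 and 8.44 with siControl and 8.24, 7.50 and 7.89 with siPRKCD in BT-549 and at 9.43, 9.54 and 9.33 with siControl and 9.32, 9.49 and 9.63 with siPRKCD in MDA-MB-468. Again only the BT-549 groups were apart. Its log2 fold change in BT-549 was -0.74 (limma adjusted p = 0.0033), lost without siControl 1 and siPRKCD 2 together, and its called difference (-0.79, limma adjusted p = 0.040) was lost on leaving out any of 9 arrays in turn (adjusted p up to 0.11). A second IRF7 probe gave -0.11 in BT-549 and was not called. IRF1 read 10.11, 10.14 and 10.15 with siControl and 9.84, 9.85 and 9.81 with siPRKCD in MDA-MB-468 and 9.69, 9.73 and 9.71 with siControl and 9.38, 9.27 and 9.50 with siPRKCD in BT-549. It stood in narrow, separate ranges in both lines, and its log2 fold changes were -0.30 (limma adjusted p = 0.014) and -0.32 (limma adjusted p = 0.0094), with a difference of -0.02 (standard error 0.12). The BT-549 call of IRF1 was lost without BT-549 siControl 1 and siPRKCD 2 together.

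The cytoplasmic effectors were mixed. MX1 and MX2 are dynamin-like GTPases that trap viral nucleocapsids, EIF2AK2 (PKR) stops translation, ADAR edits double-stranded RNA, ISG20 is an exonuclease, SAMD9 and SAMD9L restrict poxviruses, RSAD2 is viperin and PLSCR1 a phospholipid scramblase. Of the 9 measured, 7 were called lower in BT-549 cells and 4 in MDA-MB-468 (medians -0.51 and -0.30). MX1 read 11.64, 11.18 and 10.88 on the BT-549 siControl arrays and 8.95, 7.55 and 8.57 on the siPRKCD arrays. Its MDA-MB-468 values were 12.15, 12.33 and 12.07 with siControl and 11.79, 11.74 and 11.47 with siPRKCD. The groups did not overlap in either line, and BT-549 siPRKCD 2 was lower than the other arrays by more than 1 log2 unit. MX1 fell 7.34-fold in BT-549 (log2 fold change -2.88, standard error 0.26, limma adjusted p = 3.2e-06), the lowest log2 fold change of all 11459 genes there, whereas -0.52 in MDA-MB-468 did not pass the test (limma adjusted p = 0.17), although it did without BT-549 siPRKCD 2 in the shared fit (adjusted p = 0.029) and with the MDA-MB-468 groups fitted alone, and the difference was -2.36 (limma adjusted p = 0.00073). SAMD9 gave 9.43, 9.13 and 9.61 with siControl and 8.53, 8.58 and 8.79 with siPRKCD in MDA-MB-468 and 8.16, 8.06 and 7.998 with siControl and 7.15, 6.97 and 7.003 with siPRKCD in BT-549. It was lower with siPRKCD on every array of both lines, with a log2 fold change of -0.76 (limma adjusted p = 0.00023) in MDA-MB-468 cells and of -1.03 (limma adjusted p = 1.8e-05) in BT-549, called under every setting in which its probe was kept, and a difference of -0.28 that was not called (limma adjusted p = 0.34).

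ADAR was called lower in both lines under every setting tried (-0.55, limma adjusted p = 0.00095, in MDA-MB-468 cells and -0.75, limma adjusted p = 7.4e-05, in BT-549), although a second ADAR probe gave -0.04 in MDA-MB-468 cells and -0.36 in BT-549. EIF2AK2 had a log2 fold change of -0.76 (limma adjusted p = 5.9e-05) in BT-549 cells and of -0.29 (limma adjusted p = 0.039) in MDA-MB-468, the latter lost on leaving out any of 7 arrays in turn (adjusted p up to 0.16). Its called difference (-0.46, limma adjusted p = 0.047) was lost on leaving out any of 10 arrays in turn (adjusted p up to 0.11). ISG20 had its larger log2 fold change in MDA-MB-468. It was called lower in MDA-MB-468 (-0.59, limma adjusted p = 0.0022), where its groups did not overlap, and had a log2 fold change of -0.05 (limma adjusted p = 0.83) in BT-549, where they did. The difference of 0.55 was not called (limma adjusted p = 0.057), but was without BT-549 siControl 1 or siPRKCD 3 (adjusted p down to 0.038) and with a replicate block over both lines (adjusted p = 0.033). MX2 was detected on 0 MDA-MB-468 arrays and fell in BT-549 (-0.51, limma adjusted p = 0.00031). RSAD2 was called in neither line and was detected on 5 MDA-MB-468 arrays and 1 BT-549 array. SAMD9L was detected on 1 BT-549 siControl array and on 0 siPRKCD arrays, so no fold is given there, and its call (limma adjusted p = 0.032) was lost on leaving out any of 5 arrays in turn (adjusted p up to 0.12). PLSCR1 had a log2 fold change of -0.45 (limma adjusted p = 0.033) in BT-549, lost without any siControl array or without siPRKCD 2 (adjusted p up to 0.17).

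The membrane proteins were the only group with a lower median in MDA-MB-468 than in BT-549. IFITM1, IFITM2 and IFITM3 block fusion of viral and cell membranes, and BST2 (tetherin) holds budding virus at the surface. IFITM2, IFITM3 and BST2 were called lower in MDA-MB-468 (median of the 4 -0.89) and IFITM2 and IFITM3 in BT-549 (median -0.53). The response was more negative in BT-549 in 1 of these 4 genes, IFITM1. IFITM3 read 12.29, 12.31 and 12.29 with siControl and 11.16, 11.06 and 11.47 with siPRKCD in MDA-MB-468. The BT-549 arrays gave 13.38, 13.14 and 13.11 with siControl and 12.93, 12.76 and 12.90 with siPRKCD. The groups were separate in both lines and farther apart in MDA-MB-468. IFITM3 fell 2.09-fold in MDA-MB-468 (log2 fold change -1.07, standard error 0.11, limma adjusted p = 5.0e-06) and 1.27-fold in BT-549 (limma adjusted p = 0.028). The BT-549 call was lost without siControl 1 or siPRKCD 2 (adjusted p up to 0.14). The difference of 0.72 was called (limma adjusted p = 0.0073) and was lost only with median centring among the settings tried. IFITM2 had a log2 fold change of -0.87 (limma adjusted p = 0.00050) in MDA-MB-468 cells and -0.45 (limma adjusted p = 0.036) in BT-549, the latter lost without siControl 1, siControl 2, siPRKCD 2 or siPRKCD 3 (adjusted p up to 0.17), and its difference was not called (0.42, limma adjusted p = 0.24). The IFITM genes are near-identical neighbours on chromosome 11, so their probes may read more than 1 of them, which was not tested. BST2 read 9.25, 9.28 and 10.23 with siControl and 8.48, 8.20 and 9.36 with siPRKCD in MDA-MB-468, where replicate 3 was the high array with both siRNAs and the groups overlapped through it. Its log2 fold change there was -0.91 (limma adjusted p = 0.048) and lost its call on leaving out any of 6 arrays in turn (adjusted p up to 0.21). IFITM1, spread in the same way, had a log2 fold change of -0.34 (limma adjusted p = 0.60) in MDA-MB-468 cells and -0.83 (limma adjusted p = 0.14) in BT-549.

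ISG15 is conjugated to proteins through the conjugating enzyme UBE2L6 and the ligase HERC5, USP18 removes it and also restrains the interferon receptor, HERC6 is a close relative of HERC5, and TRIM25 is a ligase that acts on RIGI. In BT-549 5 of the 6 were called lower (median -0.77). In MDA-MB-468 TRIM25 was called lower and USP18 higher (median -0.09). USP18 read 7.49, 7.59 and 7.48 with siControl and 7.77, 7.85 and 7.92 with siPRKCD in MDA-MB-468, all higher with siPRKCD. In BT-549 USP18 gave 7.52, 7.51 and 7.42 with siControl and 6.84, 6.90 and 6.79 with siPRKCD, all lower with siPRKCD and detected on 0 of those arrays. It rose 1.25-fold in MDA-MB-468 (log2 fold change 0.32, standard error 0.08, limma adjusted p = 0.0095) and fell at least 1.44-fold in BT-549 (limma adjusted p = 5.7e-05), with a called difference (limma adjusted p = 9.6e-05). The rise was not called without MDA-MB-468 replicate 3 of both groups or with median centring. HERC5 was at 8.54, 8.26 and 8.03 with siControl and 7.43, 7.07 and 7.17 with siPRKCD in BT-549 and at 7.80, 8.03 and 8.36 with siControl and 7.87, 8.08 and 8.10 with siPRKCD in MDA-MB-468. It was apart in BT-549 and overlapped in MDA-MB-468, with a log2 fold change of -1.05 (limma adjusted p = 0.00012) and of -0.05 (limma adjusted p = 0.87) and a difference of -1.004 (limma adjusted p = 0.0066). UBE2L6 gave 10.87, 10.30 and 9.96 with siControl and 9.30, 8.55 and 9.17 with siPRKCD in BT-549 and 11.78, 11.72 and 11.87 with siControl and 11.54, 11.25 and 11.43 with siPRKCD in MDA-MB-468, where the groups were also apart. It fell 2.59-fold in BT-549 (limma adjusted p = 0.00013) and had a log2 fold change of -0.38 (limma adjusted p = 0.19) in MDA-MB-468. The called difference (-0.99, limma adjusted p = 0.034) was lost on leaving out any of 7 arrays in turn (adjusted p up to 0.081). A second UBE2L6 probe gave -0.37 in BT-549 (limma adjusted p over all probes = 0.041) and -0.17 in MDA-MB-468. Its difference of -0.20 was not called (limma adjusted p over all probes = 0.56). ISG15 itself read 11.32, 10.77 and 11.05 with siControl and 10.80, 9.29 and 10.32 with siPRKCD in BT-549. The groups overlapped, since siPRKCD 1 was above siControl 2, and siPRKCD 2 was far below the rest. Its log2 fold change of -0.91 (limma adjusted p = 0.014) was not called without siControl 1 (adjusted p = 0.072), and in MDA-MB-468 it was 0.09 (limma adjusted p = 0.85). HERC6 fell at least 1.16-fold in BT-549 (limma adjusted p = 0.011, 0.065 without siControl 1). TRIM25 had a log2 fold change of -0.51 (limma adjusted p = 0.0040) in MDA-MB-468 cells and -0.19 (limma adjusted p = 0.26) in BT-549.

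TRIM21, an antibody receptor of the cytosol, and SP100 and SP110, proteins of nuclear bodies, were called lower in BT-549 and not in MDA-MB-468, where TRIM22, a restriction factor for retroviruses, was called lower (-0.37, limma adjusted p = 0.0081). TRIM22 was detected on 0 of 6 BT-549 arrays, so a response could not be read there, which limits its called difference (0.50, limma adjusted p = 0.021). That difference was also lost without MDA-MB-468 siControl 1 or siPRKCD 2 (adjusted p up to 0.059). SP110 had a log2 fold change of -0.82 (limma adjusted p = 0.00015) in BT-549 and a called difference of -0.65 (limma adjusted p = 0.024), which was lost without BT-549 siControl 1, MDA-MB-468 siPRKCD 1 or MDA-MB-468 siPRKCD 2 (adjusted p up to 0.065). The BT-549 log2 fold changes of TRIM21 and SP100 were -0.31 (limma adjusted p = 0.010) and -0.49 (limma adjusted p = 0.010). Both calls were lost without BT-549 siControl 1 and siPRKCD 2 together.

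The last group holds genes named mainly for their induction by interferon. IFI44, IFI44L, IFI35 and EPSTI1 were called lower in BT-549, and IFI44, IFI44L and LGALS3BP in MDA-MB-468 (medians of the 8 genes -0.87 and -0.44). IFI44 read 10.46, 10.005 and 9.69 with siControl and 8.39, 7.68 and 8.21 with siPRKCD in BT-549, and 10.37, 10.45 and 10.81 with siControl and 9.79, 9.78 and 10.08 with siPRKCD in MDA-MB-468. The groups were apart in both lines. It fell 3.89-fold in BT-549 (log2 fold change -1.96, standard error 0.19, limma adjusted p = 5.7e-06) and had a log2 fold change of -0.66 (limma adjusted p = 0.019) in MDA-MB-468, where the call was lost without siControl 3, siPRKCD 1 or siPRKCD 2 (adjusted p up to 0.082), and the difference was -1.30 (limma adjusted p = 0.0066). IFI44L, its neighbour on chromosome 1, was at 8.62, 8.12 and 8.01 with siControl and 7.15, 6.82 and 7.06 with siPRKCD in BT-549 and at 8.54, 8.72 and 8.82 with siControl and 8.17, 7.91 and 8.20 with siPRKCD in MDA-MB-468, likewise without overlap. Its log2 fold changes were -1.24 (limma adjusted p = 2.2e-05) and -0.60 (limma adjusted p = 0.0064). A second IFI44L probe gave -0.26 and -0.02 and was called in neither line. EPSTI1 was detected on 0 MDA-MB-468 arrays and read 9.53, 9.45 and 9.19 with siControl and 8.78, 8.20 and 8.41 with siPRKCD in BT-549, a 1.90-fold fall (limma adjusted p = 8.2e-05). Its called difference (-0.81, limma adjusted p = 0.0092) is limited by the missing detection in MDA-MB-468. IFI35 had a log2 fold change of -0.96 (limma adjusted p = 8.4e-05) in BT-549 and a called difference of -0.66 (limma adjusted p = 0.033), lost on leaving out any of 6 arrays in turn (adjusted p up to 0.080).

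IFI6, a mitochondrial and endoplasmic reticulum protein, and IFI27 had wide spreads. IFI6 read 10.88, 10.92 and 12.10 with siControl and 10.53, 10.49 and 11.33 with siPRKCD in MDA-MB-468 and 12.59, 12.10 and 12.63 with siControl and 12.03, 11.11 and 11.91 with siPRKCD in BT-549. Replicate 3 was the high array in both MDA-MB-468 groups, and in BT-549 siPRKCD 2 was the low one. Neither log2 fold change passed the test (-0.52, limma adjusted p = 0.25, and -0.76, limma adjusted p = 0.083), but with the MDA-MB-468 replicates paired the BT-549 value was called (adjusted p = 0.010), and a second IFI6 probe was called in BT-549 (-1.20, limma adjusted p over all probes = 0.041). XAF1, an antagonist of the apoptosis inhibitor XIAP, had a log2 fold change of -0.32 (limma adjusted p = 0.11) in BT-549, called without siPRKCD 1 (adjusted p = 0.022), while its second probe was called (-0.46, limma adjusted p over all probes = 0.0060). LGALS3BP, a secreted glycoprotein, had a log2 fold change of -0.45 (limma adjusted p = 0.013) in MDA-MB-468, not called without siControl 1 (adjusted p = 0.072), and was detected on 1 BT-549 siControl array and 0 siPRKCD arrays.

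**Figure D4:**
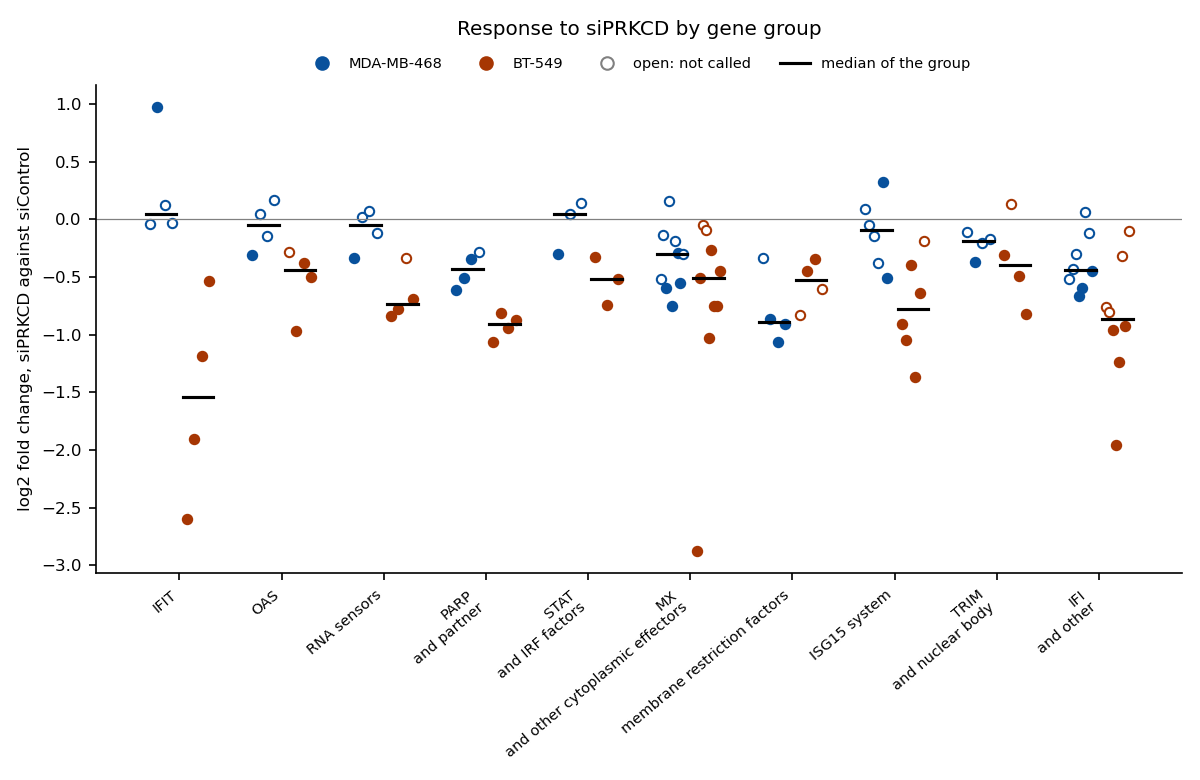
Log2 fold change (siPRKCD against siControl, y axis) of each measured gene by gene group (x axis) in MDA-MB-468 (blue) and BT-549 (brown), filled where called at an adjusted p under 0.05, with the median of each group as a bar. BT-549 medians are the lower ones in 9 of the 10 groups, by most for the IFIT genes, and MDA-MB-468 has the lower median for the membrane restriction factors.

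Set side by side, the medians in BT-549 were -1.54 for the IFIT genes, -0.91 for the PARP group, -0.74 for the sensors, -0.52 for the IRF factors and -0.44 for the OAS genes. In MDA-MB-468 the same groups had 0.05, -0.43, -0.05, 0.05 and -0.05. Of these the PARP group alone had more than 1 member called lower in MDA-MB-468. The groups hold 3 to 9 genes and no difference between them was tested. The genes with an ISRE core in a promoter window had a median of -0.82 in BT-549, with 21 of 28 called lower. Those with a window and no core had -0.49, with 10 of 13 called lower, where 14.9% of all genes tested were. The core stood in 67.7% of the 31 genes with a window called lower there and in 70.0% of the 10 not called. In MDA-MB-468 the medians were -0.34 and -0.20, with 12 and 4 called lower, where 13.7% of all genes were. The core stood there in 75.0% of the 16 genes called lower and in 64.0% of the 25 not called. The sets with and without a core were not compared by a test, and IFIT2, OASL and USP18 are among the genes without a window.

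Without siRNA against PRKCD the lines also differed, with no direction common to the list. In siControl cells 19 of 50 genes (38.0%) were called lower in BT-549 than in MDA-MB-468, against 29.7% of all genes, and 19 (38.0%) higher, against 32.6%. The median difference was 0.17, against 0.020 over all genes. All 4 IFIT genes were higher in BT-549, from 0.38 for IFIT5 to 1.89 for IFIT1 on the log2 scale. EPSTI1 was at least 5.57-fold and MX2 at least 2.14-fold higher there, being detected on 0 MDA-MB-468 arrays. Both passed the detection filter through BT-549 arrays alone, so the filter fixed the direction of their difference and a test of it adds nothing. XAF1 (2.22), IFI35 (1.40), OAS2 (1.27) and RIGI (1.05) were also higher in BT-549, although the second OAS2 probe was called lower there (-0.48, limma adjusted p over all probes = 0.00092). Of the genes lower in BT-549, LGALS3BP had the lowest log2 difference, -2.52, followed by IFIH1 (-1.81), BST2 (-1.48), UBE2L6 (-1.41) and SAMD9 (-1.32). TRIM22 was at least 1.45-fold lower in BT-549. It was detected on 0 BT-549 arrays and LGALS3BP on 1 BT-549 siControl array and 0 siPRKCD arrays. Both thus passed the filter through MDA-MB-468, which fixed their direction in the same way. The counts of 19 lower and 19 higher include these genes together with EPSTI1 and MX2. The 2 RNA sensors that signal through MAVS thus stood in opposite order, RIGI higher in BT-549 and IFIH1 higher in MDA-MB-468.

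The baseline was then set beside the response. Of the 19 genes higher in BT-549 at baseline, 17 were called lower there after siPRKCD, as were 13 of the 19 that were lower at baseline and 8 of the 12 not called. Of all genes tested 14.9% were called lower there. Their share within each baseline class was not taken, so the counts cannot tell whether the order is particular to these genes. The BT-549 siControl arrays enter both comparisons, so that these counts are given side by side only. The fit with the MDA-MB-468 replicates paired was not used for the baseline, because the pairing as coded moved the baseline estimates themselves. IFI44 went from -0.50 to -0.36 and HERC5 from 0.21 to 0.42. Baseline calls lost or gained in that fit are therefore not given. Without MDA-MB-468 siControl 3, the baseline calls of IFI44, IFI44L, HERC6, DDX60 and PARP12 were lost and HERC5 was called higher in BT-549.

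**Figure D5:**
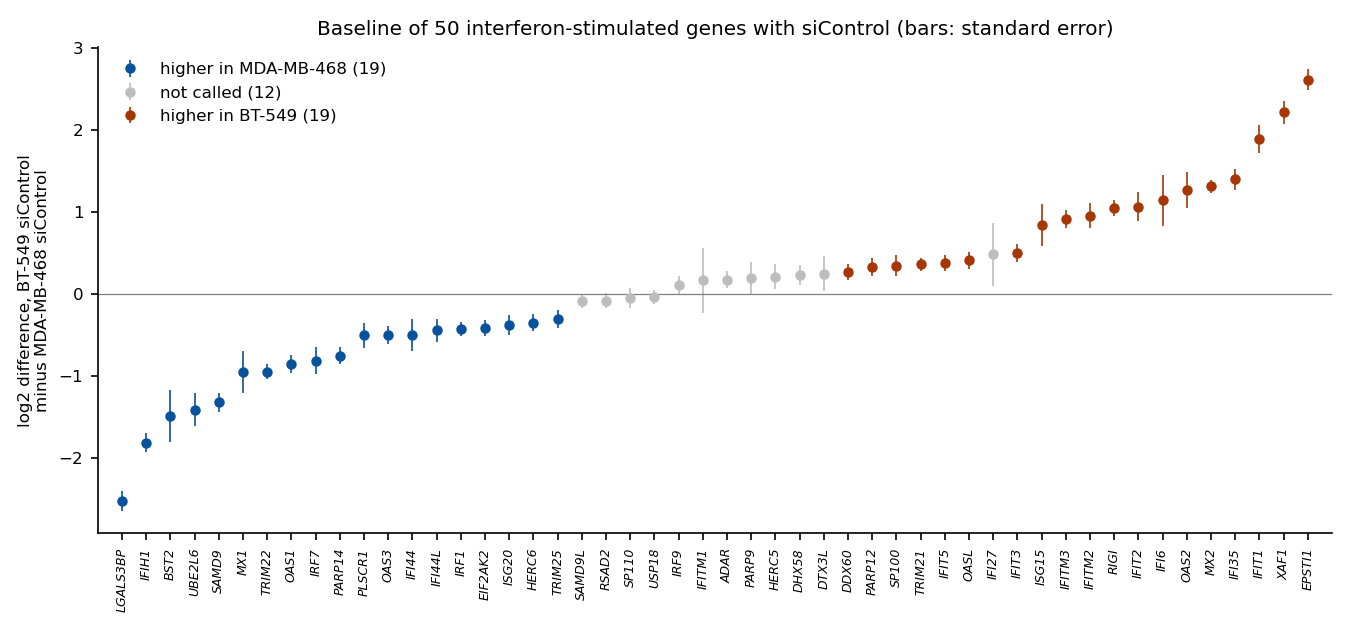
Log2 difference between BT-549 and MDA-MB-468 cells with siControl (y axis) for the 50 genes in order of that difference (x axis), with standard errors as bars. The 19 genes called higher in MDA-MB-468 run from LGALS3BP and the 19 called higher in BT-549 end with IFIT1, XAF1 and EPSTI1.

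Of 38 further genes of the interferon pathway, 23 were measured. The 9 ligands, interferon alpha, beta, gamma, kappa, epsilon and lambda genes, had 12 probes in all and were detected on 0 of the 12 arrays. Of 6 receptor genes 4 were called lower in MDA-MB-468 cells and 0 in BT-549 by limma, against 13.7% and 14.9% of all genes. These were IFNAR1 with a log2 fold change of -0.38 (limma adjusted p = 0.021), IFNAR2 with -0.40 (limma adjusted p = 0.0084), and the interferon gamma receptor genes IFNGR1 with -0.58 (limma adjusted p = 0.00059) and IFNGR2 with -0.53 (limma adjusted p = 0.0047). Their BT-549 values were -0.19, -0.11, -0.18 and -0.06, and none of the 4 differences between lines was called (adjusted p from 0.086 to 0.53). The receptor kinases TYK2 (-0.78, limma adjusted p = 0.00054) and JAK1 (-0.42, limma adjusted p = 0.037) were called lower in BT-549 and not in MDA-MB-468 (-0.09 and -0.10), with a called difference for TYK2 (-0.69, limma adjusted p = 0.029). STING1, the adaptor of cytosolic DNA sensing, fell in both lines, -1.06 (limma adjusted p = 0.00095) in MDA-MB-468 cells and -1.08 (limma adjusted p = 0.00082) in BT-549. IRF3, which turns on interferon genes, was called higher in both lines (0.34, limma adjusted p = 0.018, and 0.46, limma adjusted p = 0.0023). In BT-549 the adaptor TICAM1 (0.48, limma adjusted p = 0.0028), the kinase TBK1 (0.29, limma adjusted p = 0.045) and the phosphatases PTPN2 (0.47, limma adjusted p = 0.0017) and PTPN11 (0.39, limma adjusted p = 0.0078), which act on JAK and STAT proteins, were higher too, and for PTPN11 the difference between lines was called (0.49, limma adjusted p = 0.033). In all, 5 of the 23 were called lower and 1 higher in MDA-MB-468, where 13.7% and 12.4% of all genes were, and 3 lower and 5 higher in BT-549, where 14.9% and 11.6% were, so that the share called lower in BT-549 was near that of all genes.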

How the data were processed

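Total RNA of MDA-MB-468 and BT-549 cells was amplified, biotin-labelled and hybridized to Illumina Human HT-12 v4 BeadChips. The authors deposited signal intensities not yet normalized, detection p-values per probe and array, and a table of signals after what the methods call quantal normalization. The scanner software is not given in the sources used here. The lowest intensity was 66.2, so no value had to be raised before the log.

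Starting from those intensities, quantile normalization was applied across the 12 arrays without background correction, and log2 was then taken. The deposited normalized table differed from these values by no more than 0.00827 (log2). Of 47323 probes 30113 had 1 gene symbol in the annotation used here, 8 had several and 17202 none. Probes with a detection p-value under 0.01 on at least 3 arrays were kept (15378 with 1 gene), and each of 11459 genes was read from the kept probe that had the highest mean. No symbol needed an update.

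The limma package 3.58.1 (R 4.3.3) fitted 1 mean for each of the 4 groups (8 residual and 7.64 prior degrees of freedom), 4 contrasts, and Benjamini-Hochberg adjustment over all genes in each. Same-numbered arrays of MDA-MB-468 deviated together from their group means (correlations over all genes of 0.367, 0.287 and 0.492), so their numbers, taken from the labels, pair them as far as the data show. Those of BT-549 did so less clearly (0.281, 0.0099 and 0.046), which does not tell whether they were paired.

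The members and gene lists were chosen with earlier results of these data known. Values on every array were given for genes with a called log2 fold change or difference of at least 1 and for at least 1 gene of each main family, and some further genes (USP18, EPSTI1, IFI6, BST2, ISG15) were chosen after their values were seen. A fold against a group in which a probe was detected on 0 arrays is a lower bound, set against the higher, on each array, of the probe's own signal and the lowest signal among detected probes. Alternatives were the authors' table, neqc, median centring, other filters, the mean of all probes, only the 2 groups compared, a replicate block and leaving out arrays.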

Additional observations from a re-analysis of the deposited data

Results flagged for a closer look

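The response to siPRKCD differed between the lines, by limma's interaction test at an adjusted p under 0.05 over all genes, for 22 interferon-stimulated genes. Each value is the BT-549 log2 fold change less the MDA-MB-468 one. Genes that encode proteins binding viral RNA or nucleocapsids gave -2.56 for IFIT1, -0.50 for IFIT5, -2.88 for IFIT2, -2.36 for MX1 and -1.31 for IFIT3. The RNA sensors and enzymes gave -1.01 for OAS2, -0.80 for RIGI, -0.67 for OASL, -0.57 for DDX60 and -0.46 for EIF2AK2. The ISG15 system gave -1.004 for HERC5, -0.99 for UBE2L6 and -0.96 for USP18, and the factors and PARP14 gave -0.79 for IRF7, -0.66 for IRF9 and -0.60 for PARP14. Values of -1.30 for IFI44, -0.81 for EPSTI1, -0.66 for IFI35 and -0.65 for SP110 completed the 20 genes with a more negative response in BT-549. USP18 and IFIT5 were detected on 0 BT-549 siPRKCD arrays, and IFIT5 on 1 and 2 arrays of the MDA-MB-468 groups, so that their differences rest on signals not above background and their BT-549 falls have only bounds. The same limit holds for EPSTI1, detected on 0 MDA-MB-468 arrays. It holds in part for RIGI, detected on 1 and 2 arrays of the MDA-MB-468 groups. OASL was detected on 1 or 2 arrays of the MDA-MB-468 siControl and BT-549 siPRKCD groups, and IFIT3, OAS2 and DDX60 on 1 or 2 of the latter. The 2 genes with the opposite sign gave 0.72 for IFITM3 and 0.50 for TRIM22, of which TRIM22 was detected on 0 BT-549 arrays. Of the 22, IFIT1, IFIT2, IFIT3, MX1, OASL, IFI44, RIGI, IRF9, HERC5 and USP18 were called under every setting in which their probe was kept, 10 genes in all. The lower number of detected probes on BT-549 siPRKCD arrays and the spread between BT-549 arrays move with these differences, and their part was not tested.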

How the results depend on the processing

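None of the 118 calls of the 50 genes, over 4 comparisons, turned its sign under any setting tried. For MDA-MB-468, 18 genes were called lower, which became 7 with median centring in place of quantile normalization and 11 with background correction by neqc. Of all genes 1567 were called lower, which became 814 and 1479. The 2 members called higher became 1 with median centring, with only probes detected on all 12 arrays, and without replicate 3 of both groups. Of all genes 647, 1177 and 1191 were called higher in these 3 fits, against 1424. In BT-549 the 38 members called lower became 22 with only probes detected on all 12 arrays, where 29 of the 50 genes could be read, and 25 without siControl 1 and siPRKCD 2. Over all genes the 1705 called lower became 1313 of 7932 and 987 of 11459. The 20 differences called lower became 12 with median centring, 11 with probes on all 12 arrays and 12 without those BT-549 arrays. Over all genes the 644 called lower became 342, 352 and 380. The 2 differences called higher became 0 with median centring and 1 with probes on all 12 arrays, against 168 and 264 of all genes. At baseline 19 lower and 19 higher became 11 and 11 with that filter. It leaves fewer genes, 7932 in all, of which 2233 were called lower and 2583 higher. The settings without replicate 3 of MDA-MB-468 or without siControl 1 and siPRKCD 2 of BT-549, and the pairing within MDA-MB-468 alone, were chosen after seeing the data.

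Leaving out 1 array at a time gave 12 to 19 genes called lower and 2 to 2 called higher in MDA-MB-468, 31 to 40 lower and 0 to 0 higher in BT-549, 13 to 21 lower and 1 to 3 higher for the difference, and 15 to 19 lower and 16 to 19 higher at baseline. The lowest counts of 31 and 13 came without BT-549 siControl 1. Over all genes the counts called lower ran, in the same order, from 1189 to 1653, 1214 to 1807, 442 to 640 and 3128 to 3471. Leaving out 1 array added the calls of SP100 in MDA-MB-468, of OAS1, IFI6, DHX58 and XAF1 in BT-549, of MX2, ISG15 and IFI44L for the difference, and of HERC5 at baseline, beside those named with their results.

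With the replicate number as a block in the fit (replicate block), 18 genes were called lower and 2 higher in MDA-MB-468, 40 lower in BT-549, and 23 lower and 3 higher for the difference. Over all genes these counts were 1711 and 1595, 1868, and 781 and 689. With the pairing in MDA-MB-468 alone the counts were 18 and 2, 41, and 19 and 2. Over all genes they were 1757 and 1636, 1875, and 814 and 721. The calls this pairing changed in these comparisons are named beside their results, and it changed no other call in them. That fit was not used for the baseline. In BT-549 the correlations of same-numbered arrays were 0.281, 0.0099 and 0.046. These values do not tell whether those samples were paired by experiment.

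Weak signals limit these data, since 9 of the 50 genes were detected on 0 BT-549 siPRKCD arrays, where a fall has at most a lower bound.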
